A study of Arabidopsis thaliana with 27 samples.

Results

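The CIN-type TCP genes of Arabidopsis thaliana encode 8 transcription factors of leaf growth, and all 8 were found by locus identifier in the gene table: TCP2 (AT4G18390), TCP3 (AT1G53230), TCP4 (AT3G15030), TCP5 (AT5G60970), TCP10 (AT2G31070), TCP13 (AT3G02150, listed there as PTF1), TCP17 (AT5G08070) and TCP24 (AT1G30210). They are 8 of 27444 protein-coding genes and of 37899 nuclear loci. They were described in 17 lists of chromatin immunoprecipitation peaks from 14-day-old seedlings grown in 16 h light and 8 h dark. Occupancy by BRM (BRAHMA), the motor subunit of a SWI/SNF remodelling complex, and by REF6, a demethylase of lysine 27 of histone H3, had been mapped with an antibody against GFP. H3K27me3, the Polycomb mark that REF6 removes, had been mapped with its own antibody.

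The BRM-GFP libraries comprised the first one, whose label names no other genotype, a later one labelled BRM-BRM-GFP, here called wild type after the study's design, and a pair labelled ref6 (ref6-1). The REF6-GFP libraries comprised a first one of the same kind, a later pair labelled REF6-REF6-GFP (wild type) and a pair labelled brm, which the study's design gives as brm-1. H3K27me3 was mapped with 2 libraries per genotype, in WT, in each single mutant (brm-1 or ref6-1) and in the double mutant of the same alleles, with no GFP transgene named. Allele numbers are left off below, and brm ref6 stands for the double mutant. All GFP libraries rest on a transgene. Its promoter is labelled for the second ref6 library only, as that of BRM itself, and the sources used here do not say whether the endogenous gene was intact in the lines called wild type. A whole seedling mixes leaf, stem and root cells, so a mark present in few cells and a weak mark in many cannot be told apart.

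CIN-type TCP proteins act at the leaf margin and blade to end cell division and start differentiation; plants with too little of them make large, crinkled leaves. The microRNA miR319 cuts the transcripts of TCP2, TCP3, TCP4, TCP10 and TCP24, and leaves those of TCP5, TCP13 and TCP17 alone. TCP4 protein is also known to bind BRM and to act with it in lowering the cytokinin response of maturing leaves.

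The lists give positions and the authors' score of each peak, a p-value on a log scale. A higher score means a smaller p-value, and no score is under 50. Read depth is unknown. The first lists were the longest for each protein (12230 peaks over 8.23 Mb for BRM-GFP, 5413 over 6.81 Mb for REF6-GFP). The later GFP lists held 1466 to 4006 peaks over 0.487 to 2.32 Mb. The H3K27me3 lists held 11132 to 13079 peaks, except ref6 replicate 2, which stood apart with 5582 peaks whose median width was 1575 bp, while medians elsewhere ran from 289 to 527 bp. WT covered 6.99 and 7.81 Mb, brm 10.3 and 10.9 Mb, ref6 5.31 and 11.5 Mb, and brm ref6 7.28 and 9.83 Mb. As a check of the mark, AG, STM, WUS, SHP1, LEC2 and FUS3, textbook Polycomb targets, were covered over at least 50% of the body in both WT libraries, and ACT2, UBQ10, PP2AA3 and TUB2 had no coverage in any of the 8. Separate plantings for replicates are not stated, so spread between libraries may be technical.

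A gene counted as occupied if any peak touched its body or lay within 1000 bp of it. BRM-GFP was present in the first list at all 5 miR319-targeted genes and at TCP13, which made 6 of 8 (44.1% of protein-coding genes were called in that list). REF6-GFP was present at 4 of 8, all of them miR319-targeted: TCP2, TCP3, TCP4 and TCP24 (30.1% of protein-coding genes). The same 4 therefore carried both proteins (16.9%). TCP5 and TCP17 carried neither protein in any of the 9 GFP lists. The members are of ordinary length, with a median of 2106.5 bp against 2078 bp for all protein-coding genes. Among the 12617 protein-coding genes within the members' range of lengths (1678 to 3446 bp), 49.3% had a BRM-GFP peak, 33.4% a REF6-GFP peak and 19.8% both. Each first list is 1 library with no replicate check, and with the lists of each protein cut by score to equal length the counts were 3 of 8 for BRM-GFP (TCP3, TCP10 and TCP13; 8.04% of protein-coding genes) and 2 of 8 for REF6-GFP (TCP3 and TCP4; 13.9%).

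**Figure D1:**
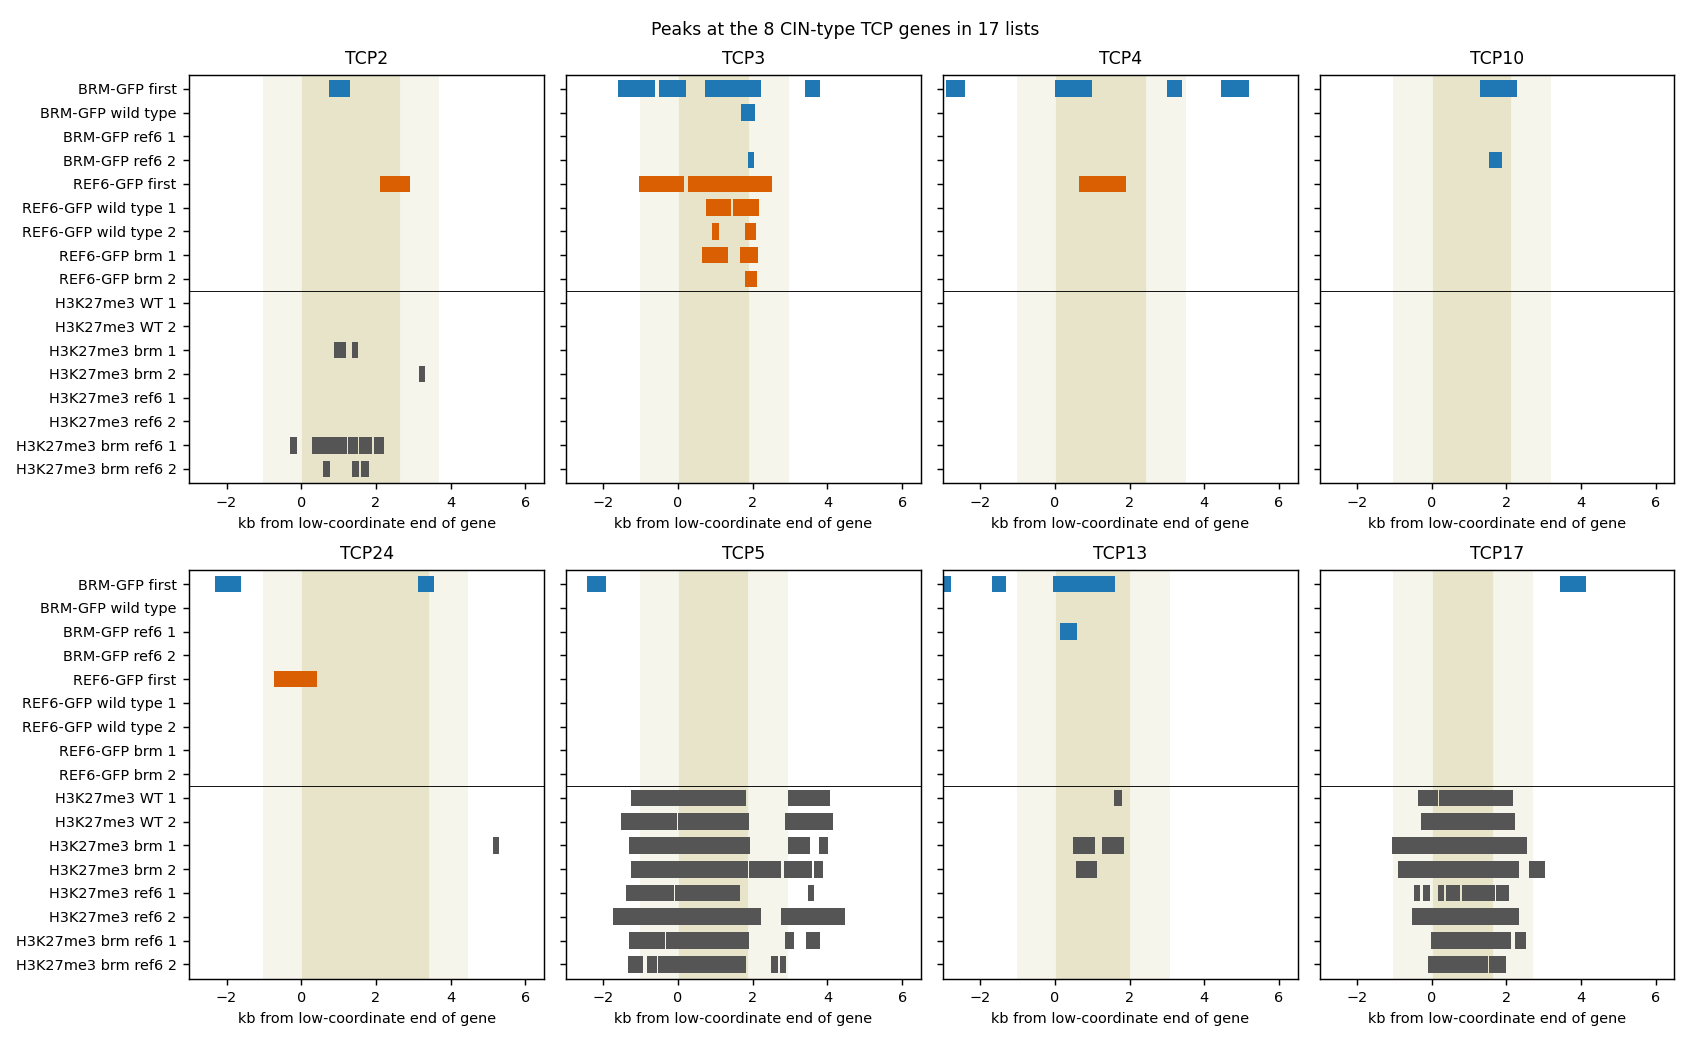
Peaks at each CIN-type TCP gene, 1 row per list, against distance in kb from the low-coordinate end of the gene; the dark band is the gene body, the light bands the 1000 bp on either side, blue BRM-GFP, orange REF6-GFP and grey H3K27me3. GFP peaks lie on TCP2, TCP3, TCP4, TCP10, TCP24 and TCP13, and continuous H3K27me3 lies on TCP5 and TCP17.

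TCP3, which represses boundary genes through microRNA and auxin-response genes, was the most widely occupied member, with a peak in 8 of the 9 GFP lists. Its REF6-GFP peak in the first list spanned 2245 bp (chromosome 1, 19850065 to 19852309) with a score of 3100. That score is shared by 261 of the 5413 peaks in the list and exceeded by 15, so the peak has no rank of its own within them. A BRM-GFP peak of 1501 bp lay wholly within it (19850520 to 19852020, score 796, rank 735 of 12230). Further peaks on the low-coordinate side also overlapped each other: BRM-GFP at 19849283 to 19849998 (score 290) shared 673 bp with REF6-GFP at 19848741 to 19849955 (score 73.2), and BRM-GFP at 19848188 to 19849181 (score 459) shared 441 bp with it.

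The later lists resolved the TCP3 peak into shorter stretches. REF6-GFP in wild type gave 19850539 to 19851209 (score 221) and 19851252 to 19851961 (495) in replicate 1. Replicate 2 gave 19850707 to 19850887 (81.7) and 19851573 to 19851870 (118). In brm, replicate 1 again had a pair (19850433 to 19851124, score 326, and 19851433 to 19851937, score 245), and replicate 2 had the high-coordinate peak alone (19851567 to 19851907, score 146). BRM-GFP stood at 19851484 to 19851847 in wild type (score 149, rank 283 of 1466) and at 19851658 to 19851824 in ref6 replicate 2 (60.8), and ref6 replicate 1 had no TCP3 peak. A stretch of 167 bp, 19851658 to 19851824, lay under a peak in all 8 of these lists. It crosses the high-coordinate end of TCP3, with 68 bp in the body, and it also lies within AT1G53233, a long noncoding RNA gene that overlaps TCP3, so the peaks cannot be assigned to either gene alone.

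TCP4, an activator of the jasmonate enzyme gene LOX2, carried both proteins over its body in the first lists. BRM-GFP lay at chromosome 3, 5061689 to 5062685 (score 520, rank 1481 of 12230), and REF6-GFP at 5062329 to 5063591 (score 383, rank 1918 of 5413), with 357 bp in common. A lower-scoring BRM-GFP peak, 533 bp beyond the high-coordinate end (5064686 to 5065093, score 92.2), shared 390 bp with the body of the neighbour AT3G15040. None of the 7 later GFP lists had a TCP4 peak.

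TCP2 and TCP24 carried the proteins at different places, without overlap. At TCP2, whose protein works in blue-light signalling, BRM-GFP lay within the body (chromosome 4, 10163653 to 10164215, score 121) and REF6-GFP 805 bp away, across the high-coordinate end (10165021 to 10165841). The REF6-GFP score of 58.4 ranked 5100 of 5413, close to the list's minimum of 50.01. At TCP24, a regulator of secondary wall thickening in anthers, the peaks lay at opposite ends of the gene, 2696 bp apart: REF6-GFP across the low-coordinate end (chromosome 1, 10626453 to 10627603, score 220) and BRM-GFP across the high-coordinate end (10630300 to 10630742, score 80.7). Of that REF6-GFP peak, 683 bp fell within the neighbouring gene AT1G30200. Neither gene had a peak in a later list.

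TCP10 and TCP13 carried BRM-GFP without REF6-GFP. At TCP10 the first-list peak covered the high-coordinate part of the body (chromosome 2, 13221779 to 13222774) with a score of 774, rank 779 of 12230. The ref6 replicate 2 list had a shorter peak inside it (13222011 to 13222361, score 105). At TCP13, which acts with TCP5 and TCP17 in shade and heat growth responses, the first-list peak of 1652 bp spanned most of the body (chromosome 3, 390683 to 392334, score 975, rank 465 of 12230). The ref6 replicate 1 list had 390868 to 391308 (score 89.2). The later wild-type BRM-GFP list had neither, and each was found in 1 of the 2 ref6 lists.

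Comparing BRM-GFP in ref6 with wild type addresses BRM occupancy when REF6 is missing. TCP3 was the only member with a peak in the later wild-type list (1 of 8, against 5.43% of protein-coding genes), and no member had a peak in both ref6 lists (3.35%). A loss was a peak in wild type and in neither ref6 list, and a gain the reverse: 0 of 8 were lost (2.23%) and 0 of 8 gained (1.22%). TCP3 turned to lost when peaks had to score at least 100, since its ref6 peak scored 60.8. Wild type had 1 library, so there is no replicate check on that side.

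Comparing REF6-GFP in brm with wild type addresses REF6 occupancy when BRM is missing. TCP3 had a peak in both wild-type libraries (1 of 8, 7.01% of protein-coding genes), in both brm libraries (1 of 8, 6.83%) and in all 5 REF6-GFP lists (1 of 8, 4.91%). No member was present in both wild-type lists and absent from both brm lists (0.0984%), and none the other way round (0.317%). TCP2, TCP4 and TCP24, whose REF6-GFP peaks were known from the first list alone, could not be compared, because the shorter later lists had no peak there in wild type either.

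H3K27me3 covered 2 members almost wholly in WT and hardly touched the others. TCP5 was covered over 95% and 99.6% of its body in the 2 WT libraries and TCP17 over 97.8% and 99.9%. TCP13 stood at 10.5% and 0%. TCP2, TCP3, TCP4, TCP10 and TCP24 had no coverage in either WT library. Called marked at 50% of the body or more, TCP5 and TCP17 were the marked members in both WT libraries (2 of 8, 8.93% of protein-coding genes), and in all 8 libraries (2 of 8, 5.41%). Both lacked BRM-GFP and REF6-GFP in the first lists (2 of 8, where 6.63% of protein-coding genes were marked in both WT libraries and lacked both). Among the 2452 protein-coding genes marked in both WT libraries, 25.8% had a first-list peak of either protein. Lacking both was therefore the usual state of marked genes. TCP3, TCP4, TCP10 and TCP24 had no coverage in any of the 8 libraries (4 of 8, 73.1%).

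**Figure D2:**
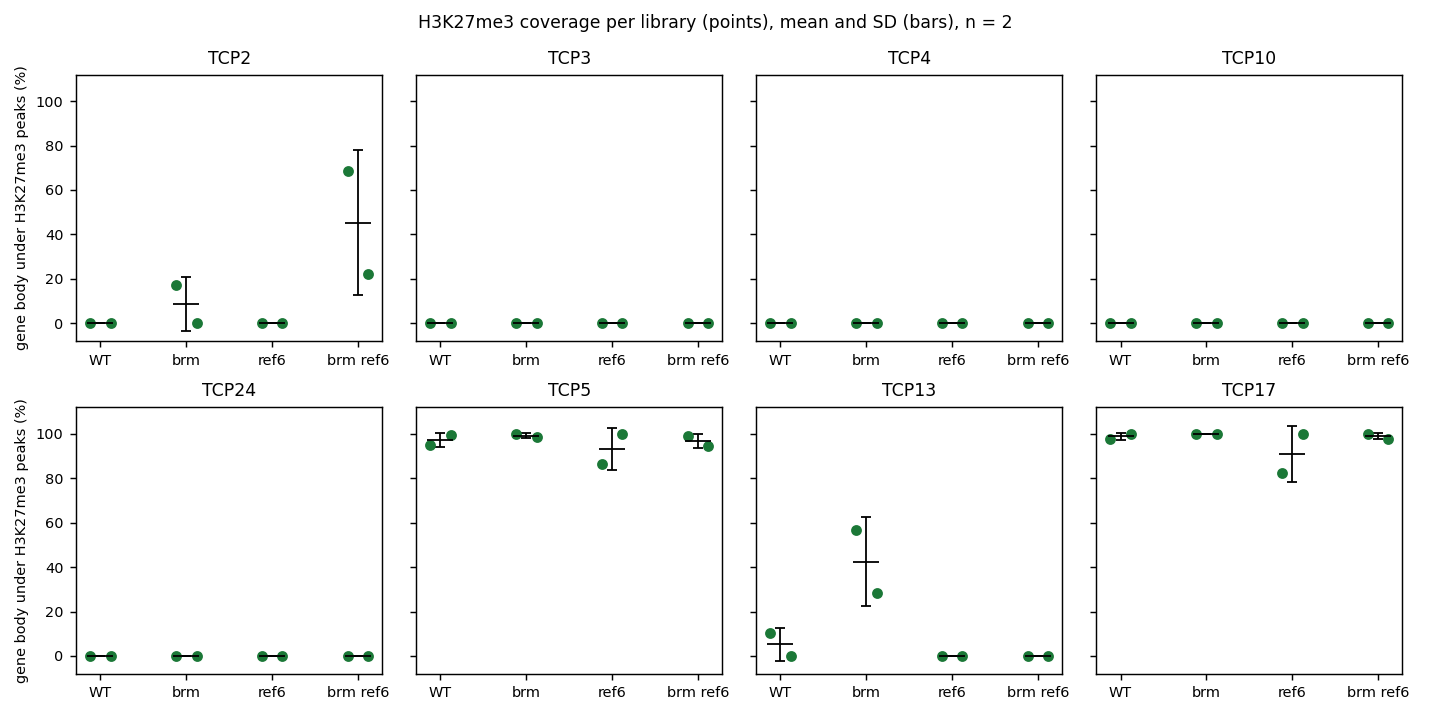
Percent of the gene body under H3K27me3 peaks for each CIN-type TCP gene by genotype; points are the 2 libraries, the horizontal bar the mean and the error bar the SD. TCP5 and TCP17 are at 82.2% or more in every library, TCP2 is raised in brm ref6 (68.4% and 22.3%) and TCP13 in brm (56.6% and 28.2%).

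At TCP5, which restrains petal growth, the domain in WT replicate 1 was a single peak of 3086 bp (chromosome 5, 24534063 to 24537148, score 2687, rank 105 of 11132). It began more than 1 kb outside the gene on the low-coordinate side. WT replicate 2 split it at 24535296 to 24535330 (scores 1046 and 1588). Coverage of the body was 100% and 98.7% in brm, 86.6% and 100% in ref6, and 99.1% and 94.7% in brm ref6, so each mutant pair overlapped the WT pair. The mean differences from WT were 2.07 percentage points in brm (exact permutation test, two-sided, p = 0.667), −3.96 in ref6 (p = 1, exact) and −0.393 in brm ref6 (p = 0.667, exact). With 2 libraries against 2, the smallest p this test can give is 0.333, so it could not tell a difference from none. The nearest first-list BRM-GFP peak lay 1927 bp from the body (24532891 to 24533409, score 172).

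At TCP17, which promotes hypocotyl growth in shade, WT replicate 1 had peaks at chromosome 5, 2583992 to 2584521 (score 242) and 2584559 to 2586523 (score 1511). WT replicate 2 had almost the same pair. In brm these merged into 1 peak of 3087 bp in replicate 1 (2583829 to 2586915, score 2561) and 3220 bp in replicate 2 (2583471 to 2586690, score 2108). In ref6 replicate 1 the domain broke into 7 short peaks with scores from 50.3 to 250, and in replicate 2, the library of wide peaks, it was 1 peak of 2852 bp. Coverage of the body was 100% in both brm libraries, 82.2% and 100% in ref6, and 100% and 97.9% in brm ref6. The difference in brm was 1.13 percentage points (exact permutation test, p = 0.333, the smallest that 2 libraries against 2 can give). The means were 98.9% ± 1.5 in WT and 100% ± 0 in brm (SD, n = 2 each). The brm pair lay above the WT pair, whose higher library was at 99.9%.

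TCP2 was unmarked in WT and in ref6, with 0% in all 4 libraries. In brm it stood at 17.3% and 0%, and in brm ref6 at 68.4% and 22.3%. Both brm ref6 libraries were above the other 6. The mean was 8.66% ± 12.2 (SD, n = 2) in brm. It was 45.3% ± 32.6 (SD, n = 2) in the double mutant. Against WT the exact permutation p was 1 for brm and 0.333 for brm ref6, the latter being the smallest that 2 libraries against 2 can give. In brm ref6 replicate 1 the peaks ran across the body, led by chromosome 4, 10163201 to 10164133 (score 464, rank 3470 of 13045), which shared 481 bp with the first-list BRM-GFP peak, and a smaller one (10164875 to 10165133, score 100.2) reached 113 bp into the REF6-GFP peak. In replicate 2 the 3 peaks were short (179 to 227 bp) and scored 50.2, 55.03 and 72.4, close to the minimum. With peaks of at least 100 only, replicate 2 had no coverage and the difference fell to 29.2 percentage points (exact p = 1).

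TCP13 was highest in brm instead. Coverage was 56.6% and 28.2% in brm, 10.5% and 0% in WT, and 0% in both ref6 and both brm ref6 libraries. The brm pair lay above the other 6 libraries. The mean was 42.4% ± 20.1 (SD, n = 2) in brm against 5.27% ± 7.46 (SD, n = 2) in WT, a difference of 37.1 percentage points (exact permutation test, p = 0.333). The brm peaks lay at chromosome 3, 391214 to 391601 (score 93.7), 391618 to 391797 (52.4) and 391984 to 392574 (210) in replicate 1 and at 391277 to 391854 (score 262) in replicate 2. The replicate 2 peak was wholly within the first-list BRM-GFP peak of this gene. The single WT peak was 216 bp long with a score of 52.0. With the H3K27me3 lists cut by score to equal length the difference was 14.1 percentage points (exact permutation test, p = 1), and TCP13 was no longer called higher in brm (1 of 8, TCP17; 6.72% of protein-coding genes).

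Read over all members, H3K27me3 by the 50% bound was gained by 0 of 8 in ref6 (1.30% of protein-coding genes), 0 of 8 in brm (1.44%) and 0 of 8 in brm ref6 (1.81%). Losses numbered 0 of 8 in ref6 (0.375%), 0 in brm (0.0510%) and 0 in the double mutant (0.627%). TCP2 in brm ref6 and TCP13 in brm missed the call because 1 library of each pair was under 50%. Without brm ref6 replicate 2, TCP2 was called gained, and without brm replicate 2, TCP13 was. Counted by libraries that do not overlap, coverage was higher in ref6 for 0 of 8 (4.50%), in brm for 2 of 8, TCP13 and TCP17 (9.71%), and in brm ref6 for 1 of 8, TCP2 (7.29%). It was lower for 0 of 8 in ref6 (2.58%), brm (0.470%) and brm ref6 (4%). Higher coverage than in all 6 other libraries, a pattern chosen after the values were seen, was found in both brm ref6 libraries at 0.769% of protein-coding genes, TCP2 among them, and in both brm libraries at 3.36%, TCP13 among them.

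The flanks added to this picture. With 1000 bp on either side counted, coverage of TCP17 was 67.8% and 68.7% in WT and 96.0% and 89.1% in brm, and that of TCP5 72.0% and 74.5% in WT and 75.1% and 97.1% in brm. Together with TCP2 and TCP13 this made 4 of 8 higher in brm (17.9% of protein-coding genes). In brm ref6, 2 of 8, TCP2 and TCP5, were higher (10.7%), and in ref6 0 of 8 were higher (6.44%). TCP17 was lower in brm ref6 (1 of 8, at 65.9% and 55.8%). No share of all genes is given for lower coverage with flanks, so that call has nothing to be set against. The brm lists covered more of the genome than the WT lists (10.3 and 10.9 Mb against 6.99 and 7.81 Mb); the part this had in the wider domains was not tested. Between the double mutant and brm, mean body coverage differed by 36.7 percentage points at TCP2, −42.4 at TCP13, −2.46 at TCP5 and −1.04 at TCP17. Between ref6 and WT it differed by 0 at TCP2, −5.27 at TCP13, −3.96 at TCP5 and −7.75 at TCP17. With 2 libraries per genotype the design is too small for a permutation test of the difference between these contrasts to pass a threshold of 0.05, so none is given.

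**Figure D3:**
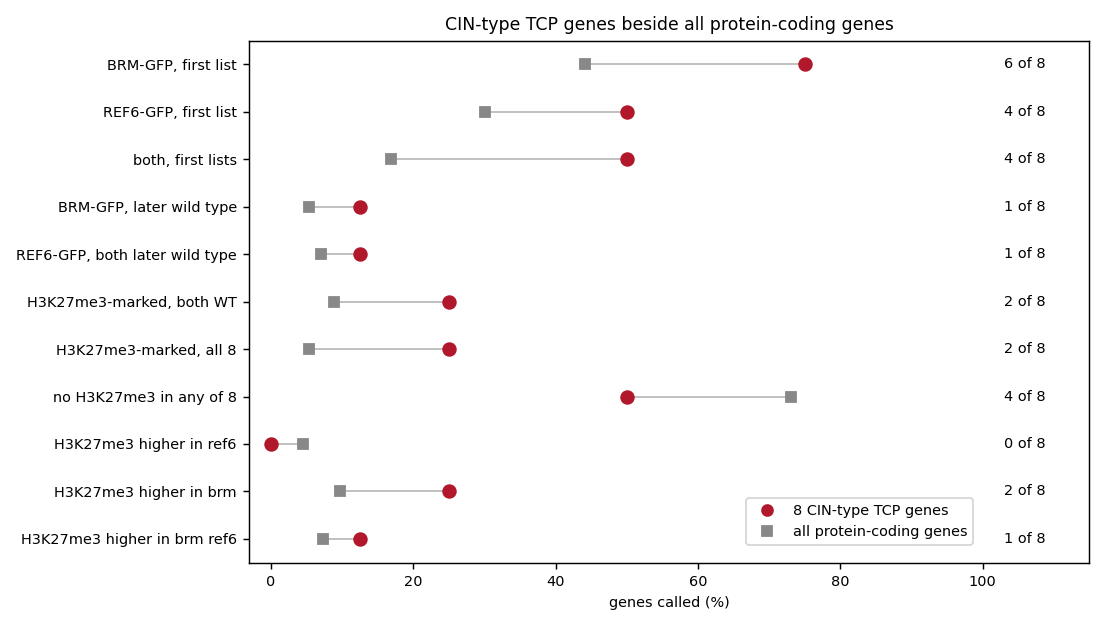
Share of the 8 CIN-type TCP genes (red) and of all 27444 protein-coding genes (grey) called under each rule, in percent of genes, with the number of members at the right. The members stand at 6 of 8 for first-list BRM-GFP and at 4 of 8 for both proteins, where all genes stand at 44.1% and 16.9%.

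The genes with a profile most like a marked member were those with the smallest mean absolute difference in coverage over the 8 H3K27me3 libraries. For TCP5 they were AT3G58890 (0.762 percentage points), AT3G58210 (0.997) and AT2G03000 (1.04). For TCP17 they were the arabinogalactan-protein gene AGP30 (0.415), the homeobox gene HB-3 (0.547) and AT5G54350 (0.579). Such profiles were common, since 718 protein-coding genes lay within 5 points of TCP5 and 710 of TCP17. In the 9 GFP lists, TCP2, TCP4 and TCP24 shared the pattern of both first lists and no later one. For each of them that pattern was counted at 1841 protein-coding genes (6.71%). The count for the TCP3 pattern was 18 (0.0656%).

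The 3 miR319 genes, upstream repressors of 5 members, were marked in all 8 libraries, as were 5.41% of protein-coding genes. MIR319A and MIR319B were covered over 100% in all 8 libraries, and MIR319C over 100% in both WT and both brm libraries, 65.3% and 100% in ref6, and 100% and 75.4% in brm ref6. None of the 3 had a BRM-GFP or REF6-GFP peak in the first lists, where 44.1% and 30.1% of protein-coding genes were called. MicroRNA genes are not protein-coding, so these shares are only a rough guide.

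The mark and the first-list peaks were also set side by side across the TCP family of 24 genes, by the 1000 bp rule. The 6 genes marked in both WT libraries were TCP5, TCP17, TCP16 of class I and all 3 CYC/TB1-type genes, TCP1, TCP12 and BRC1, the repressor of bud outgrowth. None of the 6 had a BRM-GFP or REF6-GFP peak in the first lists, and 25.8% of all marked protein-coding genes had a peak of either. Lacking both was thus common among marked genes. The rule matters here, since TCP5 and TCP17 had first-list BRM-GFP peaks within 3000 bp. Of the other 18, 17 had a BRM-GFP peak and 7 a REF6-GFP peak. Over all protein-coding genes, 19.0% of the 2452 marked ones and 46.6% of the others had a BRM-GFP peak, and 10.2% and 32.1% a REF6-GFP peak, so the REF6-GFP share of the unmarked TCP genes (38.9%) was near that of unmarked genes at large. In the first lists, class I genes carried BRM-GFP at 11 of 13 (44.1% of protein-coding genes) and REF6-GFP at 3 of 13 (30.1%). All 3 carried both (16.9%). They were AT5G08330 (the clock regulator CHE, listed as TCP11 with TCP21 among its synonyms, BRM-GFP score 1364, REF6-GFP score 347), TCP22 (259 and 166) and AT2G37000 (78.7 and 59.7). In the later wild-type lists, BRM-GFP was at 6 of 13 (5.43%) and REF6-GFP in both libraries at 4 of 13 (7.01%). TCP8 and TCP23, without REF6-GFP in the first list, had it in all 4 later REF6-GFP lists.

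**Figure D4:**
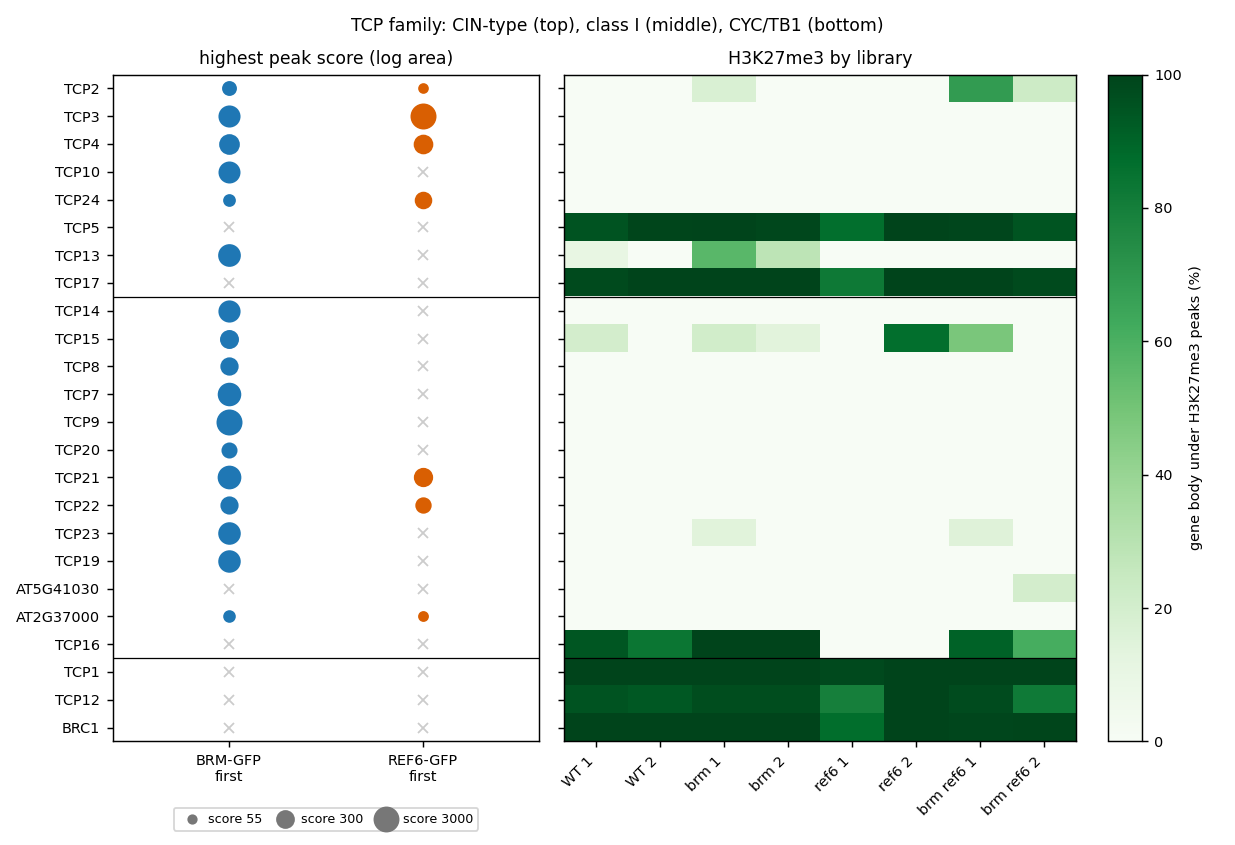
The 24 TCP genes, with the highest authors' peak score in the first BRM-GFP and REF6-GFP lists (dot area grows with the log of the score, crosses mark no peak) and the percent of the gene body under H3K27me3 peaks in each library. The 6 genes that are dark in both WT columns have crosses for both proteins.

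Unless stated otherwise, the GFP counts in the gene lists that follow are from the first lists. They stand beside shares of all protein-coding genes of 44.1% for BRM-GFP, 30.1% for REF6-GFP and 16.9% for both. Among 9 genes of the corepressors that work with TCP proteins, 6 had a BRM-GFP peak and 3 both proteins: TPL (BRM-GFP score 1108, REF6-GFP score 99.4), TPR1 (841 and 380) and TPR3 (161 and 310). TIE1, whose protein links TCP factors to TPL, was covered by H3K27me3 over 94.4% or more in each of the 8 libraries. TIE2 was called lost in brm ref6, 1 of 9 (0.627% of protein-coding genes), at 84.7% and 87.4% in WT and 42.9% and 28.6% in the double mutant. It was also below WT in both ref6 libraries, at 41.1% and 65.2% (1 of 9, 2.58% of protein-coding genes). In both brm libraries it was above WT, at 98.1% and 91.3% (1 of 9, 9.71%). Among 13 genes downstream of CIN-type TCP factors, 6 had BRM-GFP, 5 REF6-GFP and 3 both: IAA3 (451 and 149), HAT2 (541 and 317) and the cell-cycle inhibitor gene KRP1 (926 and 319). ARR16, the cytokinin-response gene on which TCP4 and BRM act together, had no peak of either protein in the first lists. H3K27me3 was gained in ref6 by 2 of the 13 (1.30% of protein-coding genes), the boundary gene CUC1 (0% in both WT libraries, 98.4% and 100% in ref6) and the auxin synthesis gene YUC5 (46.2% and 39.5% in WT, 50.3% and 52.7% in ref6, close to the 50% bound), by CUC1 in brm ref6 (1 of 13, 1.81%; 100% and 98.8%) and by 0 of 13 in brm (1.44%). YUC5 was below WT in both brm ref6 libraries, at 28.2% and 24.5%.

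Among 10 GRF and GIF genes, which promote leaf cell division and oppose the CIN-type TCP genes, 6 had BRM-GFP (44.1% of protein-coding genes), 6 REF6-GFP (30.1%) and 5 both (16.9%). These 5 were GRF1 (BRM-GFP score 390, REF6-GFP score 1201), GRF2 (83.3 and 619), GRF5 (75.3 and 281), GRF8 (655 and 138) and GRF9 (216 and 863). By the 50% bound 0 of 10 gained or lost H3K27me3 in any mutant. Coverage was higher without overlap between libraries for 2 of 10 in brm (9.71%) and the same 2 in brm ref6 (7.29%), named after their values were seen. GRF5 stood at 56.5% and 40.3% in WT, 78.4% and 72.9% in brm and 80.1% and 61.7% in brm ref6. GIF1, a coactivator of GRF proteins, stood at 5.85% and 0% in WT, 9.46% and 18.7% in brm and 6.69% and 7.65% in brm ref6.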

How the data were processed

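The submitters' processing notes name Bowtie2 2.2.5, MACS 1.4 and the build TAIR10. Every deposited list is that of 1 library, with a position and the authors' score per peak, which served for ranking or filtering inside its own list. Which control each call used is not stated; the 10 input samples were not analysed here.

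Genes came from the supplied RefSeq table (TAIR10.1), which has no strand, so only peak coordinates are printed, counted from 1. Centres of first-list BRM-GFP peaks lay within 250 bp of a gene end in 46.8% to 50.1% of cases on the 5 chromosomes, and in at most 25.7% after shifts of 500 or 1000 bp. Occupied genes had 1 bp or more of a peak within 1000 bp of the body or in it, and marked genes had 50% or more of the body under H3K27me3 peaks. Coverage was compared by an exact two-sided permutation test over libraries. Overlap code was tested on simulated peaks. Python 3.11.15, pandas 2.3.3 and numpy 2.4.6 were used.

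The members, gene lists and rules were chosen with earlier results of these data known. All 8 members are named. Listed genes are named with values when both proteins had a first-list peak or the mark was gained or lost, and a few others were named after their values were seen. Symbols were checked against the table. Values are means ± SD over 2 libraries.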

Additional observations from a re-analysis of the deposited data

How the results depend on the processing

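With peaks of score 100 or more, 1 member (TCP3) lost BRM-GFP in ref6 and 0 had higher H3K27me3 coverage in brm ref6. With all lists of a kind cut to equal length, first-list occupancy fell to 3 of 8 for BRM-GFP (8.04% of protein-coding genes). For REF6-GFP it fell to 2 of 8 (13.9%). Under that cut 1 member lost BRM-GFP in ref6. Higher coverage was found for 1 in brm (TCP17, no longer TCP13, against 6.72% of protein-coding genes) and 0 in brm ref6. With any overlap counted as marked, 1 member gained H3K27me3 in brm ref6. With 1000 bp flanks, coverage was higher for 4 members in brm (17.9% of protein-coding genes) and for 2 in brm ref6 (10.7%). It was lower for 1 in brm ref6. With 3000 bp on either side, 8 of 8 members had a first-list BRM-GFP peak. Counts without a percentage, here and with 1 library left out, have no share of all genes beside them. They are not read as results about the members.

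Leaving out 1 library at a time, BRM-GFP in the remaining ref6 list ranged from 1 to 2 members, losses of BRM-GFP from 0 to 1, and gains were 1 in each case. Higher coverage ranged from 0 to 2 members in ref6, 2 to 4 in brm and 1 to 2 in brm ref6, lower coverage from 0 to 2 in ref6 and 0 to 1 in brm ref6, and gains from 0 to 1 in brm and in brm ref6.

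Several differences from WT changed sign under at least 1 of the settings. For TCP5 in ref6 the difference was 3.35 percentage points with flanks and −10.6 to 2.73 without 1 library. For TCP17 in ref6 it was −19.2 at score 100 or more and at equal length, and −16.6 to 1.13 without 1 library. It changed sign only without ref6 replicate 1, which left the library of wide peaks. For TCP5 in brm it was −0.236 to 4.38 without 1 library. For TCP5 in brm ref6 it was 2.85 with flanks and −2.7 to 1.91 without 1 library. For TCP17 in brm ref6 it was −7.42 with flanks, −5.51 at score 100 or more and at equal length, and −0.983 to 1.16 without 1 library. The TCP2 difference in brm ref6 stayed above 0, from 17.5 at equal length to 68.4 without replicate 2, and that of TCP13 in brm from 14.1 at equal length to 51.3 without brm replicate 2. The cause was not tested.

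The replicate numbers were also used as pairs. Deviations of same-numbered libraries with those of WT correlated at −0.211 in ref6, 0.147 in brm and 0.167 in the double mutant over 27444 genes, and 2 pairs do not settle a pairing. With the replicate block, 2 members were higher in brm and 1 in brm ref6, as without it, and the exact p was 0.5 for TCP2 in brm ref6 and for TCP13 in brm, the smallest that 2 pairs allow. Crossing the numbers of WT and ref6, added after that correlation was seen, left 0 gained, 0 lost and 0 higher. Read depth is unknown, so peaks that a short list lacks may be under its detection limit.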

Other observations

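TCP16, a class I TCP gene, lost H3K27me3 in ref6 and was the 1 class I gene so called of 13 (0.375% of protein-coding genes). It was covered over 94.2% and 83.5% in WT, 100% and 100% in brm, 0% and 0% in ref6 and 90.4% and 61.2% in brm ref6. It carried no GFP peak in the first lists. TCP15, another class I gene, was covered over 86.4% in ref6 replicate 2, the library of wide peaks, and 0% in ref6 replicate 1.

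TCP24 stayed free of H3K27me3 within 1000 bp in all libraries, and a peak of 161 bp lay 1695 bp beyond its high-coordinate end in brm replicate 1 (chromosome 1, 10632326 to 10632486, score 59.3). At TCP2 a peak of 150 bp lay 496 bp beyond the body in brm replicate 2 (chromosome 4, 10166080 to 10166229, score 52.7). BRM-GFP peaks of the first list lay within 3000 bp of both marked members, 1927 bp from TCP5 and 1762 bp from TCP17 (chromosome 5, 2587798 to 2588500, score 360). At that distance 8 of 8 members had a first-list BRM-GFP peak, so the members no longer differed. The share of all protein-coding genes at 3000 bp is not given here. A first-list BRM-GFP peak of 2789 bp with a score of 1584, rank 148 of 12230, lay 2773 bp from TCP13 on its low-coordinate side (chromosome 3, 385158 to 387946).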
